A study of Mus musculus with 4 samples.

Results

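The cells described here are CD4 T cells of the mouse small intestine that carried RNA of Ramp3 and none of the cytokine or subset genes used to sort helper T cells into classes. They were chosen by their counts: at least 1 UMI of Ramp3 (a unique molecular identifier, 1 counted RNA molecule) and 0 UMIs of Foxp3, Il2, Ifng, Il17a, Il21, Cd8a and Cxcr5. The files held 22534 cells that passed minimums of 500 genes and 1000 UMIs and a limit of 10% on mitochondrial RNA, of which 3955 (17.6%) met this rule and are called the Ramp3+ cells. The cells they are set against had 0 UMIs of Ramp3 and of the same 7 genes, and numbered 6459 (28.7% of all cells). A further split was made among cells with at least 1 UMI of Il2, Ifng, Il17a or Il21 and none of Foxp3, Cd8a and Cxcr5, of which 3248 held Ramp3 and 6398 did not. All cells came from wild-type C57Bl/6 mice, the one group of the study, with no treatment named in the labels and no age given. Living cells positive for CD45, CD3 and CD4 had been sorted from the lamina propria after removal of Peyer's patches and collagenase digestion, and 4 libraries were made with 10x Genomics 5′ chemistry. The labels speak of 4 mice and do not say that each library held 1 of them, so libraries are the replicates. Each library was a block in the fit, so p-values measure how differences between cell sets vary from library to library. This spread was pooled over the 4 cell sets.

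RAMP3 is a single-pass membrane protein that pairs with the calcitonin receptor-like receptor, the product of Calcrl, or with the calcitonin receptor. The pair forms receptors for adrenomedullin, amylin and related peptides, among them calcitonin gene-related peptide (CGRP), which sensory neurons make from Calca. These receptors couple to the stimulatory G protein, raise cyclic AMP and so activate protein kinase A and the transcription factor CREB, which binds the cyclic AMP response element (CRE). Nr4a3 encodes an orphan nuclear receptor that antigen receptor and cyclic AMP signals induce within minutes to hours. Tnfsf11 encodes RANKL, the tumour necrosis factor (TNF) family ligand that drives bone resorption and lymphoid tissue development. Vps37b encodes a subunit of ESCRT-I, a complex that sorts membrane proteins into endosomes for degradation. These 3 genes had been named beforehand as markers of the Ramp3+ cells, with earlier results of these data known. Their levels are therefore given as a description, without a test.

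The 250 bases before the RefSeq start site of Ramp3, of its markers Nr4a3 and Tnfsf11, of Calca and of Nr4a2 are shown to set Ramp3 beside genes that were higher in the Ramp3+ cells. Nr4a2, a relative of Nr4a3, was chosen after its matches were seen. The sequences are from RefSeq on GRCm38.p6 and are written 5′ to 3′ along the gene. Capitals mark the CRE core TGACG, searched on both strands. The full CRE TGACGTCA, whose letters include the core, the NR4A site AAAGGTCA and the AP-1 site TGACTCA were searched on both strands too and had no match in these windows.
Ramp3: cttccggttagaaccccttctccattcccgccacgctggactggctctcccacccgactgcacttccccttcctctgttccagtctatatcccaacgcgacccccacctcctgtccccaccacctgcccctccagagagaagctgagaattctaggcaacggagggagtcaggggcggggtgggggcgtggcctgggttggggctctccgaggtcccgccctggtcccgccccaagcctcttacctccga
Nr4a3: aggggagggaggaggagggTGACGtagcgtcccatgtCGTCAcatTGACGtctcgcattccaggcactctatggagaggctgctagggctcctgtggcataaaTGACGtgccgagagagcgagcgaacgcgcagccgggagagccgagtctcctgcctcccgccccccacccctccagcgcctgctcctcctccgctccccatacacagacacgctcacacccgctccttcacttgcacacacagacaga
Tnfsf11: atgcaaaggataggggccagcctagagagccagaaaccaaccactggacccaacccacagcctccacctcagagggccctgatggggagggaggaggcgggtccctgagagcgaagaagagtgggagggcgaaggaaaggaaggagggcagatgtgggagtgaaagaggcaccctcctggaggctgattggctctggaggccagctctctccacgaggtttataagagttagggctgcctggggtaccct
Calca: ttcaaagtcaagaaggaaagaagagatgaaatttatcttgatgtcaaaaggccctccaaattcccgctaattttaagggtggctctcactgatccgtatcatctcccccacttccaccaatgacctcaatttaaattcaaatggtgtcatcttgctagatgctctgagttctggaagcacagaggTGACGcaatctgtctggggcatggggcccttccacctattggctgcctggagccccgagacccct
Nr4a2: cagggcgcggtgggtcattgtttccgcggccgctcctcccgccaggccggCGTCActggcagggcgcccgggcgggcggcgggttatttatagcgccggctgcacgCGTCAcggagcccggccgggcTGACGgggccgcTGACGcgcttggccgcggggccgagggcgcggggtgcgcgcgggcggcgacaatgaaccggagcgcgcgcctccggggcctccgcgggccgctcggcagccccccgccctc
The windows lie at chr11:6658283-6658532 on the plus strand for Ramp3, chr4:48045055-48045304 on the plus strand for Nr4a3, chr14:78308044-78308293 on the minus strand for Tnfsf11, chr7:114636358-114636607 on the minus strand for Calca and chr2:57124004-57124253 on the minus strand for Nr4a2. Nr4a3 held 4 cores, which began 231, 213, 205 and 147 bases before the start site, and Nr4a2 held 4, which began 200, 144, 123 and 111 bases before it. Calca held 1 core, 65 bases before the start site, and Ramp3 and Tnfsf11 held 0. Of the other genes searched, all of them higher in the Ramp3+ cells, Fosl2 held 0 cores, Atf3 and Odc1 held 1 each, and Per1 held 1 in each of 2 windows. Of 32817 promoter windows of this length, 5825 (17.8%) held at least 1 core and 45 (0.137%) held at least 4, while 1.55% held the full CRE, 1.34% the NR4A site and 4.46% the AP-1 site. A match is a match of letters, and whether a factor binds there was not measured.

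In the GENCODE annotation of GRCm38, Ramp3 is a protein-coding gene at chr11:6658521-6677475 on the plus strand, Nr4a3 one at chr4:48045153-48086447, Tnfsf11 at chr14:78277445-78308043 and Vps37b at chr5:124004641-124032270. For Ramp3 and Nr4a3 the GENCODE start lies inside the window shown above, which was set from the RefSeq start. The Nr4a3 core 147 bases before the RefSeq start thus lies within the GENCODE gene. Ramp3 was read in 8033 cells in all, and in 43.8%, 41.3%, 28.7% and 28.0% of the cells of libraries 1 to 4. Libraries 1 and 2 thus stood above libraries 3 and 4. Of the 8033 cells, 830 held a UMI of Foxp3, Cd8a or Cxcr5, 3248 others held one of the 4 cytokines, and 3955 (49.2%) were left as the Ramp3+ cells. Per library they numbered 1248, 1260, 780 and 667, which was 22.0%, 21.3%, 14.0% and 12.4% of the cells (mean 17.4%). A zero count does not show that a cell lacks a transcript, and the rule takes deeper cells for Ramp3. The Ramp3+ cells had median depths of 4118, 3620, 3746.5 and 4029 UMIs in libraries 1 to 4, against 3861, 3347, 3421 and 3731 UMIs in the Ramp3- cells. For this reason shares of cells with a UMI are given after each cell was thinned to 2000 UMIs, which left out 12 to 28 Ramp3+ cells and 71 to 116 Ramp3- cells per library. The share of cells marked as likely doublets was 3.57% to 5.25% among Ramp3+ cells and 2.17% to 2.82% among Ramp3- cells. Pairs of libraries shared 34 to 51 cell barcodes, of which 1 to 3 belonged to Ramp3+ cells of both.

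The Ramp3+ cells were T cells by their markers. The summed level of Cd3d, Cd3e, Cd3g, Trac, Trbc2 and Cd4 was 4921 to 5180 CPM (UMIs per 1000000 UMIs of the set) in the Ramp3+ cells and 5266 to 5451 CPM in the Ramp3- cells, so the ranges did not overlap. Cd4 was read in 48.3% ± 2.55 of thinned Ramp3+ cells and 51.6% ± 1.73 of thinned Ramp3- cells, and Cd3e in 96.1% ± 0.823 and 97.0% ± 0.433 (SD, n = 4 libraries). Markers of other cells differed by list. Plasma cell genes (Jchain, Igha, Igkc, Mzb1, Xbp1) summed to 77.9 to 278 CPM in the Ramp3+ cells and 477 to 1789 CPM in the Ramp3- cells. Cd79a, a B cell receptor subunit, was read with 0 to 4 UMIs per library in the Ramp3+ cells, against 22 to 48 UMIs in the Ramp3- cells. B cell genes summed to 56.7 to 119 CPM in Ramp3+ cells and 86.3 to 133 CPM in Ramp3- cells, myeloid genes to 134 to 142 CPM and 145 to 176 CPM, and gamma-delta T cell genes to 39.6 to 70.6 CPM and 62.8 to 110 CPM. Endothelial or stromal genes summed to 41.0 to 47.2 CPM in the Ramp3+ cells and 36.6 to 39.4 CPM in the Ramp3- cells, higher without overlap. Of these 7 genes Pecam1, an adhesion protein that leukocytes also carry, was at 40.6 to 46.8 CPM in the Ramp3+ cells, and Col3a1, Emcn and Kdr were at 0 UMIs there. The part of such cells in the results was not tested. Ikzf2, Il2ra and Ctla4, which regulatory T cells use besides Foxp3, summed to 1186 to 1406 CPM in the Ramp3+ cells and 811 to 1203 CPM in the Ramp3- cells, with ranges that overlapped. Genes of cycling cells summed to 215 to 280 CPM in the Ramp3+ cells and 224 to 266 CPM in the Ramp3- cells.

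The name "without helper cytokines" holds for the 4 cytokines of the rule and not for others. After thinning, 15.6% ± 0.481 of the Ramp3+ cells and 15.4% ± 0.806 of the Ramp3- cells held at least 1 UMI of Il22, Il17f, Il4, Il5, Il13, Il10, Tnf or Csf2 (unthinned, 25.0% and 22.8%). Tnf, the founding TNF ligand, was read in 8.57% ± 1.34 of thinned Ramp3+ cells and 10.3% ± 0.604 of Ramp3- cells. Il22, a cytokine that acts on gut epithelium, was read in 2.60% ± 1.73 and 0.962% ± 0.661. Il4, a type 2 cytokine, was read in 1.74% ± 0.758 and 1.57% ± 0.782, and Il10, an inhibitory cytokine, in 2.41% ± 0.700 and 2.68% ± 0.749. For Il4 and Il10 the means differed by less than the SD over libraries, a measure that leaves out the pairing of sets within a library. In the paired test of summed UMIs described below, neither passed. Cd40lg, the ligand by which helper cells act on B cells and myeloid cells, was read in 63.3% ± 4.30 of thinned Ramp3+ cells and 60.2% ± 4.47 of Ramp3- cells.

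The 3 marker genes stood apart in every library. Nr4a3 was at 390, 338, 247 and 225 CPM in the Ramp3+ cells of libraries 1 to 4, against 179, 155, 98.6 and 94.6 CPM in the Ramp3- cells. The lowest Ramp3+ library was above the highest Ramp3- library, and libraries 1 and 2 were the highest in each. Tnfsf11 was at 285, 302, 256 and 218 CPM in the Ramp3+ cells, against 146, 159, 111 and 108 CPM in the Ramp3- cells. Vps37b was at 1606, 1310, 1179 and 1214 CPM in the Ramp3+ cells, against 818, 688, 477 and 439 CPM in the Ramp3- cells. For these genes too the sets did not overlap. On thinned cells, Nr4a3 was read in 39.6% ± 8.84 of Ramp3+ cells and 19.9% ± 5.89 of Ramp3- cells, Tnfsf11 in 28.5% ± 2.73 and 17.4% ± 2.37, and Vps37b in 78.7% ± 5.69 and 48.0% ± 9.52. All 3 together were read in 11.3% ± 3.01 of the Ramp3+ cells and 3.49% ± 1.61 of the Ramp3- cells, and none of them in 13.2% ± 4.98 and 39.8% ± 9.17. Exactly 2 of them were read in 37.3% ± 5.89 of the Ramp3+ cells and 18.1% ± 5.19 of the Ramp3- cells, and exactly 1 in 38.1% ± 3.74 and 38.7% ± 2.42. Of the 3 markers Vps37b alone was thus read in most Ramp3+ cells at this depth. The rule used none of the 3, but they were named with earlier results of these data known, so their separation is no independent support. Of all genes tested, 20% had library ranges that did not overlap.

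**Figure D1:**
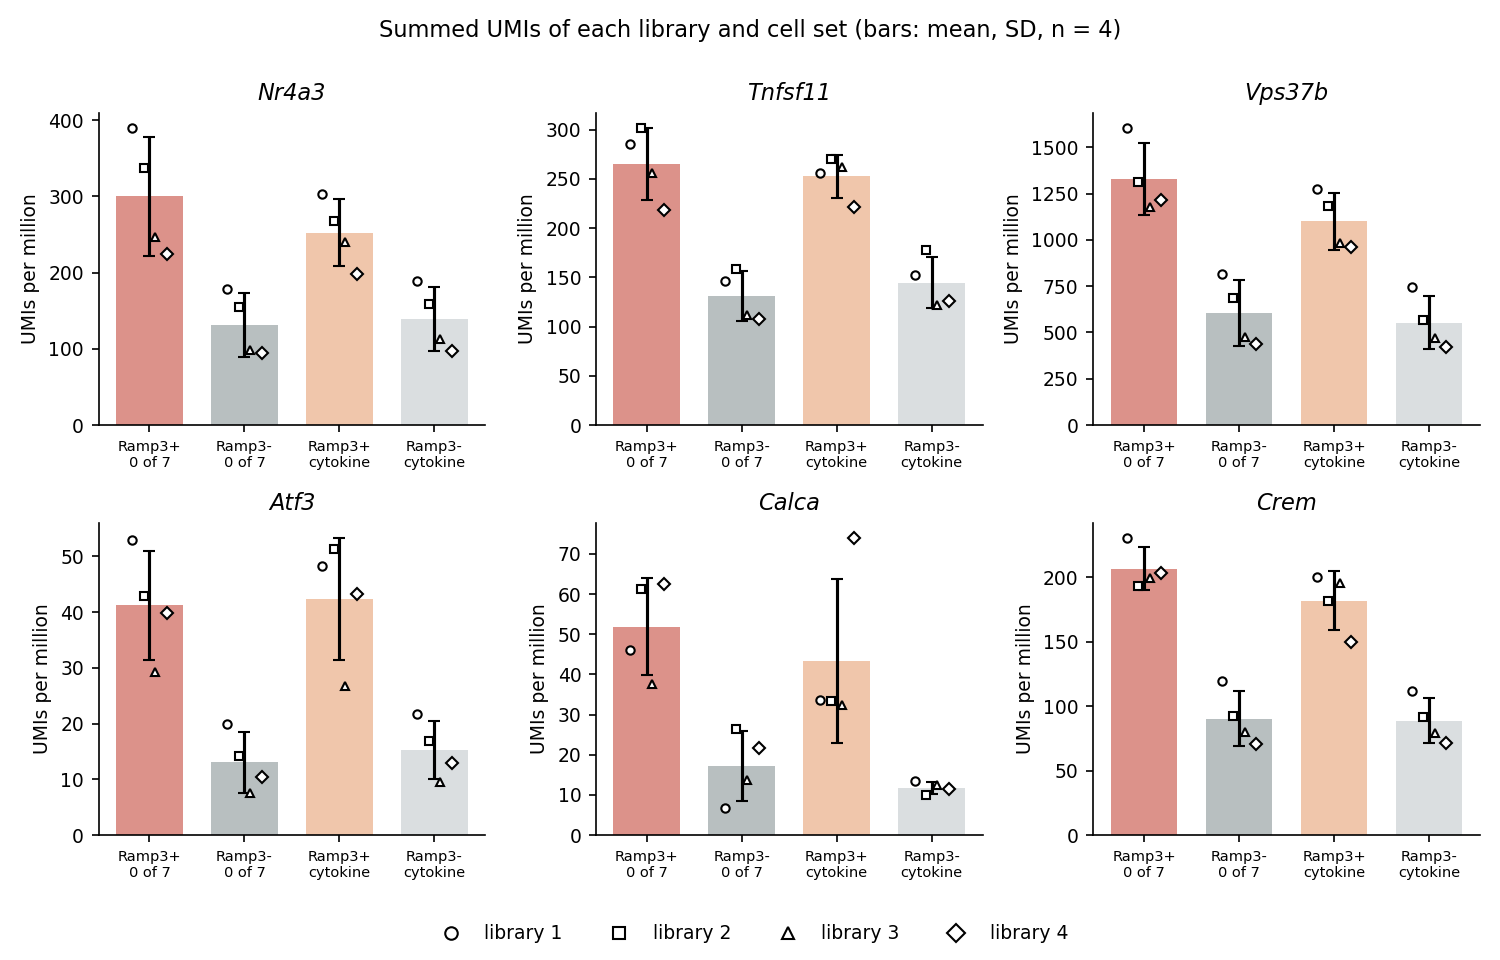
Level of the 3 markers and of Atf3, Calca and Crem in CPM (y axis) for the Ramp3+ and Ramp3- cells with 0 UMIs of the 7 genes and for the Ramp3+ and Ramp3- cells with a cytokine UMI (x axis). Bars are means with SD over 4 libraries and symbols are libraries; in each panel every library was higher in its Ramp3+ cells than in its Ramp3- cells of the same kind.

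The rule cuts at 1 UMI, and many Ramp3+ cells lie just inside it. Exactly 1 Ramp3 UMI was held by 453, 580, 400 and 346 of the Ramp3+ cells of libraries 1 to 4 (36.3%, 46.0%, 51.3% and 51.9%), and 6 or more by 174, 100, 49 and 37. The highest count in 1 cell was 22. Levels of the markers climbed with the number of Ramp3 UMIs. Nr4a3 averaged 132 ± 41.7 CPM at 0 UMIs, just outside the rule, 240 ± 70.2 CPM at 1 UMI, just inside it, 298 ± 72.5 at 2, 366 ± 66.7 at 3 to 5 and 427 ± 99.2 at 6 or more (SD, n = 4). Tnfsf11 averaged 131 ± 25.5, 203 ± 18.1, 264 ± 34.9, 312 ± 42.2 and 454 ± 154 CPM over the same classes, and Vps37b 606 ± 179, 1032 ± 156, 1401 ± 188, 1647 ± 192 and 1789 ± 37.2 CPM. In library 1 Vps37b fell at the last step, from 1915 CPM at 3 to 5 UMIs to 1736 CPM at 6 or more. Cd4 did not climb, with 368 ± 14.0 CPM at 0 UMIs and 339 ± 18.0 CPM at 6 or more, and Cd3e was at 1933 ± 77.7 and 1697 ± 123 CPM. Median depth also differed between the classes, for example 3883 UMIs at 1 Ramp3 UMI and 4310.5 UMIs at 6 or more in library 1, and its part in the climb was not tested.

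**Figure D2:**
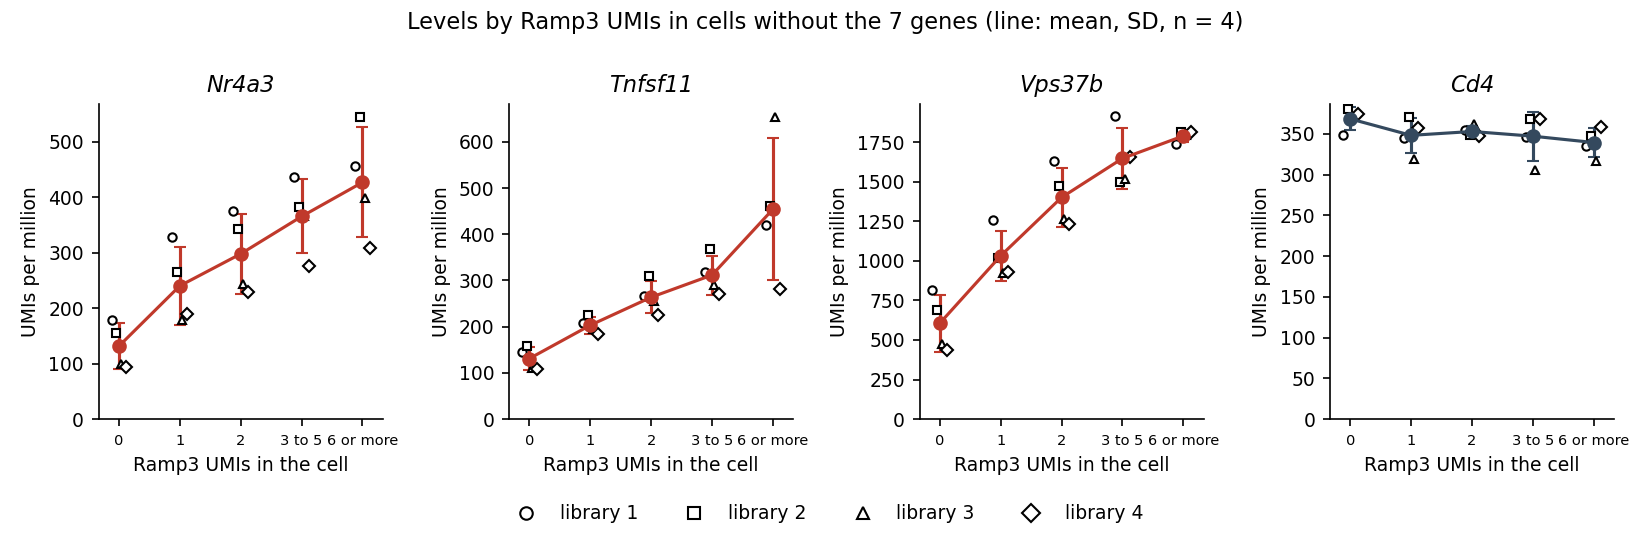
Level of Nr4a3, Tnfsf11, Vps37b and Cd4 in CPM (y axis) by the number of Ramp3 UMIs in the cell (x axis), in cells with 0 UMIs of the 7 genes. Lines join means with SD over 4 libraries and symbols are libraries. The means of the 3 markers climb from the class of 0 to the class of 6 or more, and Cd4 stays between 339 and 368 CPM on average. In library 1 Vps37b is lower at 6 or more than at 3 to 5.

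Genes other than these were tested between Ramp3+ and Ramp3- cells on UMIs summed per library, with edgeR's quasi-likelihood test and Benjamini-Hochberg adjustment over 10729 genes. The 7 zero genes, Ramp3 and the 3 markers were left out. A gene is said to have risen or fallen where its adjusted p was under 0.05. In all, 2736 genes (25.5%) passed, 1523 higher (14.2%) and 1213 lower (11.3%) in the Ramp3+ cells, and 20% of genes had library ranges that did not overlap. With scaling by library size alone the split was 873 higher and 2477 lower (26.1% higher, against 55.7% here), since that scaling put the median log2 fold change of all genes at -0.11 instead of -0.0035. Fold changes below are relative to the TMM scaling. List counts below stand beside the 14.2% higher and 11.3% lower of all genes. A list near these shares is not set apart from genes in general.

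Of the calcitonin family, the peptide gene moved and its receptor did not pass the test. Calca, which encodes calcitonin and CGRP, was at 46.1, 61.2, 37.7 and 62.6 CPM in the Ramp3+ cells of libraries 1 to 4, against 6.84, 26.4, 13.8 and 21.6 CPM in the Ramp3- cells. The ranges did not overlap. It rose by 1.72 ± 0.21 on the log2 scale (SE; edgeR adjusted p = 1.6e-06, higher in 4 of 4 libraries). Calcrl, the receptor that RAMP3 pairs with, was at 8.05, 7.75, 7.30 and 8.66 CPM in the Ramp3+ cells, against 7.02, 8.59, 7.35 and 11.2 CPM in the Ramp3- cells. Its ranges overlapped, and it was read in 1.61% ± 0.335 of thinned Ramp3+ cells and 1.68% ± 0.343 of Ramp3- cells. Ramp1, which pairs with the same receptor to form the CGRP receptor, was at 2.73 ± 0.976 CPM in the Ramp3+ cells and 4.50 ± 2.63 CPM in the Ramp3- cells (edgeR adjusted p = 0.092). Crcp, a small protein needed for CGRP receptor coupling, fell by 0.44 ± 0.10 on the log2 scale (23.9 and 34.2 CPM, edgeR adjusted p = 0.0015). Of 10 listed genes of the family 4 could be tested, 1 higher and 1 lower. Calcr, the calcitonin receptor, had 0 UMIs in the summed 17530535 UMIs of the Ramp3+ cells, which allows up to 0.171 CPM (3 counts over the group, counting error only). Ramp2 had 4 UMIs there and Adm, the adrenomedullin gene, 3.

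Other receptors that raise cyclic AMP were also measured. Adora2a, the adenosine receptor of T cells, rose by 1.10 ± 0.07 on the log2 scale (181 CPM in the Ramp3+ cells and 92.1 CPM in the Ramp3- cells). Gpr65, a receptor for acid pH, rose by 0.68 ± 0.04 (188 and 126 CPM). Of the 6 receptors tested, 3 rose and 1 fell, Ptger4, a prostaglandin E2 receptor, by 0.19 ± 0.06 (edgeR adjusted p = 0.081 without library 3).

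Genes that cyclic AMP is known to induce had the most calls in 1 direction among the 30 gene lists. Of 14 such genes, all tested, 13 rose and 0 fell, with a median log2 fold change of 0.69, against -0.0035 over all genes tested. Fosl2, which encodes an AP-1 subunit, was at 224, 172, 173 and 182 CPM in the Ramp3+ cells, against 109, 73.2, 58.9 and 53.7 CPM in the Ramp3- cells, and rose by 1.48 ± 0.09. Crem, a CREB family member that feeds back on CRE promoters, was at 231, 193, 199 and 203 CPM in the Ramp3+ cells, against 119, 92.2, 79.7 and 70.3 CPM in the Ramp3- cells, and rose by 1.31 ± 0.08. Neither gene's ranges overlapped. Sik1, a kinase that restrains CREB coactivators, was at 56.9, 62.9, 57.5 and 53.2 CPM in the Ramp3+ cells, against 29.5, 32.2, 22.6 and 19.4 CPM in the Ramp3- cells, and rose by 1.25 ± 0.09. Nr4a2, the relative of Nr4a3 whose promoter is shown above, rose by 0.90 ± 0.07 (290 and 167 CPM), Per1, a clock gene with CRE control, by 0.87 ± 0.07 (168 and 99.1 CPM), and Areg, which encodes the tissue repair factor amphiregulin, by 0.94 ± 0.20 (258 and 149 CPM). Without library 4 the Areg value was 0.58, still called. Pde3b did not pass (0.03 ± 0.06). The count stayed at 12 or 13 rising and 0 falling genes in all 16 other settings tried, cells of like depth among them. Several genes of this list were counted in others too. Nr4a1 and Nr4a2 were in the antigen receptor list, Fos and Fosl2 in the AP-1 list, Per1 in the clock list and Areg among the cytokines. Cyclic AMP was not measured, and its part in these calls was not tested.

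Fos and Dusp1 of this list are also known to rise with tissue digestion. Of 15 genes of dissociation stress 8 rose and 6 fell, with a median of 0.17. Atf3 is in this list too. Its rise of 1.76, given again below, was the largest among the genes the selection rule took. Fosb rose by 0.46 ± 0.05 and Junb by 0.45 ± 0.04, and Hsp90aa1, a heat shock chaperone, by 0.20 ± 0.03. Jun fell by 0.25 ± 0.06, Zfp36 by 0.53 ± 0.10, Hspa1a by 1.02 ± 0.23 and Hspa1b by 1.09 ± 0.29 (near-identical genes whose reads may be split between them). The median mitochondrial share was 2.28% to 2.53% in the Ramp3+ cells and 2.15% to 2.41% in the Ramp3- cells. The part of digestion in these calls was not tested.

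**Figure D3:**
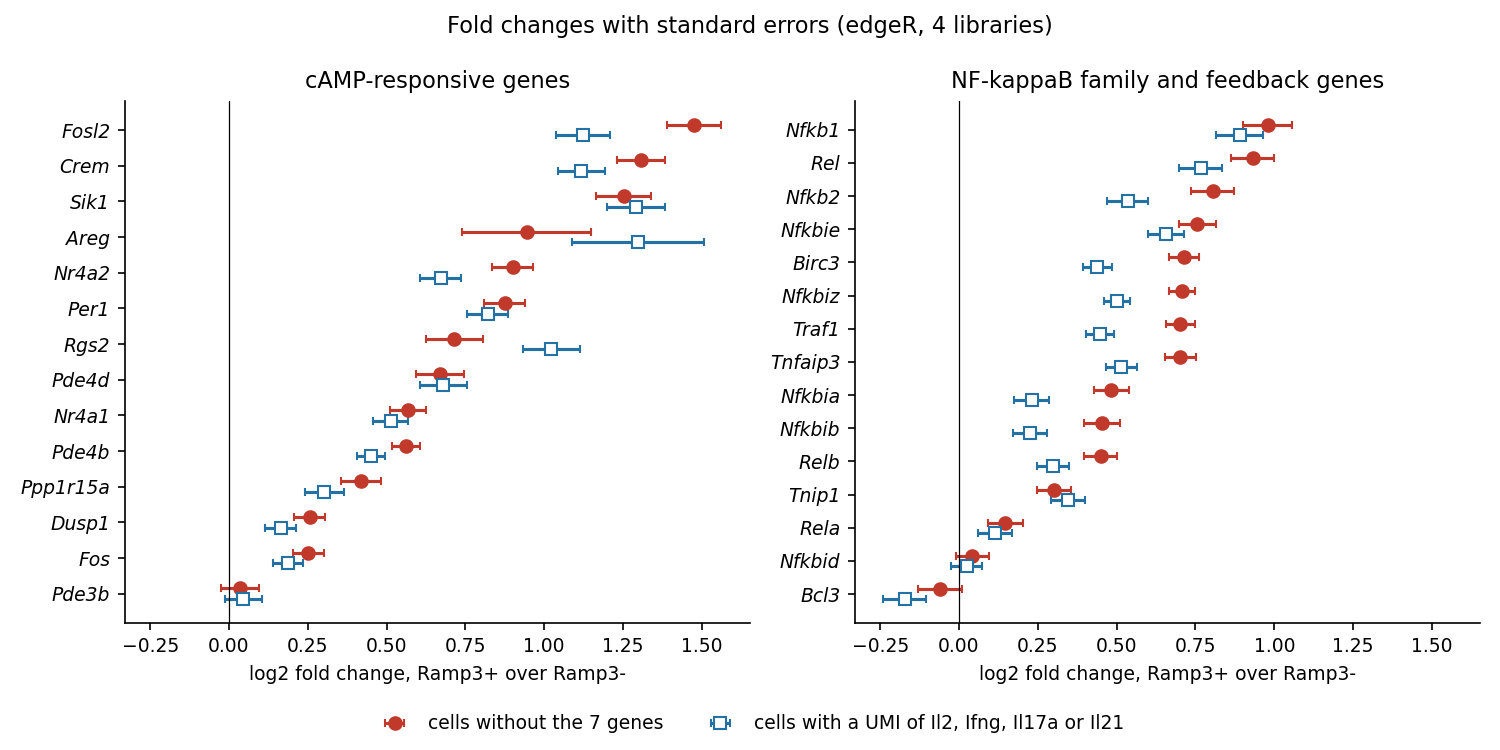
Log2 fold change of Ramp3+ over Ramp3- cells (x axis) with standard errors from edgeR for each tested gene of the cyclic AMP list and of the NF-kappaB list (y axis), in cells with 0 UMIs of the 7 genes (filled) and in cells with a cytokine UMI (open). In cells without the 7 genes 13 of 14 and 12 of 15 genes passed the test, all of them higher.

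Of 13 AP-1 genes tested 9 rose, 1 fell, Jun, and 3 did not pass (Bach1, Bach2 and Mafk). Atf3, a stress and cyclic AMP induced factor, had the largest rise among the genes the selection rule took. It was at 53.0, 42.9, 29.2 and 39.8 CPM in the Ramp3+ cells, against 20.0, 14.2, 7.49 and 10.4 CPM in the Ramp3- cells, did not overlap, and rose by 1.76 ± 0.10 (edgeR adjusted p = 2.9e-11). Maff, a small Maf protein, rose by 1.24 ± 0.08. Of 15 genes of the NF-kappaB family and its feedback, 12 rose and 0 fell, with a median of 0.70. Rel, the c-Rel subunit, rose by 0.93 ± 0.07 (235 and 133 CPM), Nfkbiz, an atypical inhibitor, by 0.71 ± 0.04 (328 and 216 CPM), Birc3, an apoptosis inhibitor, by 0.71 ± 0.05, and Tnfaip3, the A20 deubiquitinase that ends NF-kappaB signals, by 0.70 ± 0.05. Rela, Bcl3 and Nfkbid did not pass. Genes that antigen receptor signals induce were mixed, with 9 of 18 higher and 2 lower (median 0.13): Bhlhe40, a transcription factor of activated T cells, rose by 0.90 ± 0.04, while Egr1 fell by 0.40 ± 0.11 and Cd69 by 0.15 ± 0.04. Egr2, Egr3 and Myc, other early genes of the antigen receptor, did not pass (edgeR adjusted p = 0.28, 0.94 and 0.054).

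Feedback genes of kinase and cytokine signals differed by list. Dusp10, a phosphatase of the stress kinases p38 and JNK, was at 375 CPM in the Ramp3+ cells and 172 CPM in the Ramp3- cells and rose by 1.24 ± 0.07, Dusp4 rose by 1.07 ± 0.10 and Dusp5 by 1.03 ± 0.06, while Dusp2 fell by 0.53 ± 0.06. The list of kinase feedback genes held 4 rising and 1 falling of 9 genes, and 4 did not pass. Of 8 SOCS and PIM genes 5 rose and 0 fell: Pim3, a survival kinase, by 1.06 ± 0.05, Socs3, the brake on STAT3 signals, by 0.99 ± 0.05, and Pim1 by 0.72 ± 0.06. Of 9 regulators of mRNA decay 7 rose and 2 fell. Zc3h12a, which encodes the RNase Regnase-1 that cuts cytokine mRNA, was at 186 CPM in the Ramp3+ cells and 93.3 CPM in the Ramp3- cells and rose by 1.11 ± 0.06, and Tob2, a recruiter of deadenylases, rose by 0.97 ± 0.04. Zfp36, which binds AU-rich elements of cytokine mRNA, was among the 2 that fell.

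Receptors for cytokines rose more often than they fell, 9 and 5 of 20. Those that fell were Il15ra, Tgfbr1, Il12rb1, Il27ra and Il10ra, and the falling count ran from 2 to 6 over the settings tried. Il21r was at 587 CPM in the Ramp3+ cells and 289 CPM in the Ramp3- cells and rose by 1.13 ± 0.04. Il4ra rose by 1.05 ± 0.08 (127 and 65.8 CPM), Ifngr1, the ligand-binding chain of the interferon gamma receptor, by 0.90 ± 0.03 (842 and 484 CPM), and Il2rb by 0.50 ± 0.04 (301 and 228 CPM). Among TNF receptors 4 of 9 rose and 2 fell: Tnfrsf1b and Tnfrsf4, which encode TNF receptor 2 and OX40, rose by 1.01 ± 0.07 and 1.01 ± 0.09, and Tnfrsf9, which encodes 4-1BB, by 0.92 ± 0.15. The TNF ligands other than Tnfsf11, which had been named with the rule, went 3 up and 5 down of 10. Tnfsf8, the CD30 ligand, rose by 1.19 ± 0.08 (196 and 93.3 CPM), and Cd40lg by 0.27 ± 0.03, while Ltb, a lymphotoxin subunit, fell by 0.23 ± 0.03, Tnfsf10, which encodes TRAIL, by 0.48 ± 0.07 and Tnf by 0.30 ± 0.08.

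Helper programmes differed by list. Of 13 genes of the Th17 programme, 8 rose and 1 fell, with a median of 0.60. Il22 was at 142, 159, 68.2 and 59.0 CPM in the Ramp3+ cells, against 60.7, 67.8, 21.6 and 12.9 CPM in the Ramp3- cells. Each library was higher in its Ramp3+ cells, though the ranges overlapped, and Il22 rose by 1.57 ± 0.34 (edgeR adjusted p = 0.0016). That call was lost in cells of 4000 to 8000 UMIs (1.15 on the log2 scale) and in the fit with no replicate block (adjusted p = 0.120). Rora, a Th17 and tissue lymphocyte factor, rose by 0.89 ± 0.04 (657 and 380 CPM), Ccr6, the receptor for CCL20, by 0.68 ± 0.10 and Tmem176a by 0.59 ± 0.08. Of 14 genes of the Th1 programme, 1 rose and 9 fell, with a median of -0.21. Ccl5, a chemokine of effector T cells, was at 2070, 1744, 1957 and 1986 CPM in the Ramp3+ cells, against 3646, 3033, 4170 and 4592 CPM in the Ramp3- cells, did not overlap and fell by 0.88 ± 0.06. Ccl4 fell by 1.33 ± 0.26, Gzmb by 0.52 ± 0.07 and Nkg7, a granule protein, by 0.31 ± 0.04, while Stat4, which transmits interleukin 12, rose by 0.43 ± 0.04. Of 9 Th2 genes 5 rose and 0 fell, Ccr4 by 0.55 ± 0.07 and Ccr8 by 0.85 ± 0.15, and Gata3, the defining factor, did not pass (0.01 ± 0.06). Of 11 genes of follicular help 5 rose and 0 fell, led by Icos, a costimulatory receptor (0.68 ± 0.04, 738 and 494 CPM), and Tox2 with 0.49 ± 0.10. With cells of 2000 to 4000 UMIs alone the Th2 count was 2 and the follicular count 1. Of 13 regulatory T cell genes 5 rose and 2 fell, among them Ctla4 (0.50 ± 0.05) and Ikzf2 (0.38 ± 0.07), which are part of the summed regulatory marker level given above. The part of regulatory T cells with no Foxp3 UMI in these calls was not tested.

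Killing and residency genes were lower or mixed. Of 10 genes of granzymes and killing, 3 rose and 5 fell: Gzma fell by 0.62 ± 0.07 (982.5 and 1593 CPM) and Gzmb as above, while Serpinb9, the inhibitor that shields a cell from its own granzyme B, rose by 1.11 ± 0.05 (174 and 86.4 CPM). Itgae, the integrin chain that holds T cells at epithelium, was read in 16.5% ± 4.57 of thinned Ramp3+ cells and 25.1% ± 3.30 of Ramp3- cells and fell by 0.65 ± 0.09, and Ccr9, the gut homing receptor, fell by 0.33 ± 0.04. The list of 15 tissue retention genes held 6 higher and 5 lower, and 3 higher and 7 lower with scaling by library size alone. Of 11 chemokine receptors 4 rose and 3 fell. Of 8 co-inhibitory receptors 2 rose, Ctla4 and Tigit (0.39 ± 0.06), and 1 fell, Cd160 (-0.27 ± 0.05). Over all genes tested 14.2% rose and 11.3% fell, and counts in a list this small do not set it apart. Of 12 genes of naive and recirculating cells 4 rose and 2 fell, and 2 rose and 4 fell with library size alone. Of 14 cytokines outside the rule 6 rose, among them Areg and Il22, and 0 fell. This list held no TNF family members, and Tnf, Lta and Ltb, which fell, were counted with the TNF ligands above. Il17f was at 4.39 ± 3.46 CPM in the Ramp3+ cells and 0.824 CPM in the Ramp3- cells. It did not pass (edgeR adjusted p = 0.088), although its library ranges did not overlap.

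Metabolic and survival genes were mixed. Odc1, which makes the polyamine putrescine, was at 1248, 822, 803 and 789 CPM in the Ramp3+ cells, against 546, 398, 315 and 253 CPM in the Ramp3- cells and rose by 1.40 ± 0.06, and Hk2, a hexokinase, by 1.38 ± 0.09 (55.8 and 22.9 CPM). Of 15 glycolysis genes 5 rose and 0 fell, but apart from Hk2 and Slc2a1 (0.49 ± 0.09) the rises were small (Ldha 0.20 ± 0.03, Gapdh 0.17 ± 0.03). Of 13 genes of sterol synthesis and uptake 2 rose and 8 fell, among them Fdft1 by 0.45 ± 0.07 and Hmgcs1 by 0.45 ± 0.08, and 1 fell in the fit with no replicate block. Of 12 Bcl2 family genes 5 rose and 2 fell, and 4 rose and 6 fell with library size alone. Under TMM scaling Pmaip1, which encodes the death protein NOXA, rose by 0.54 ± 0.06 and Bcl2a1b and Bcl2a1d, near-identical copies whose reads may be split between them, by 0.56 ± 0.04 and 0.69 ± 0.05. Nr3c1, the glucocorticoid receptor, rose by 0.65 ± 0.04, in a list of 10 genes of aryl hydrocarbon and vitamin receptors with 4 higher and 2 lower. Of 13 clock genes 5 rose and 0 fell, while the list median was -0.10. Vps37b's partners in ESCRT-I mostly did not pass: 1 of 7 tested subunits rose, beside 14.2% of all genes tested. It was Mvb12b, by 0.28 ± 0.10 (edgeR adjusted p = 0.037). That call was lost in 8 of 16 other settings, among them without library 1 (adjusted p = 0.311) and without library 2 (adjusted p = 0.0831).

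**Figure D4:**
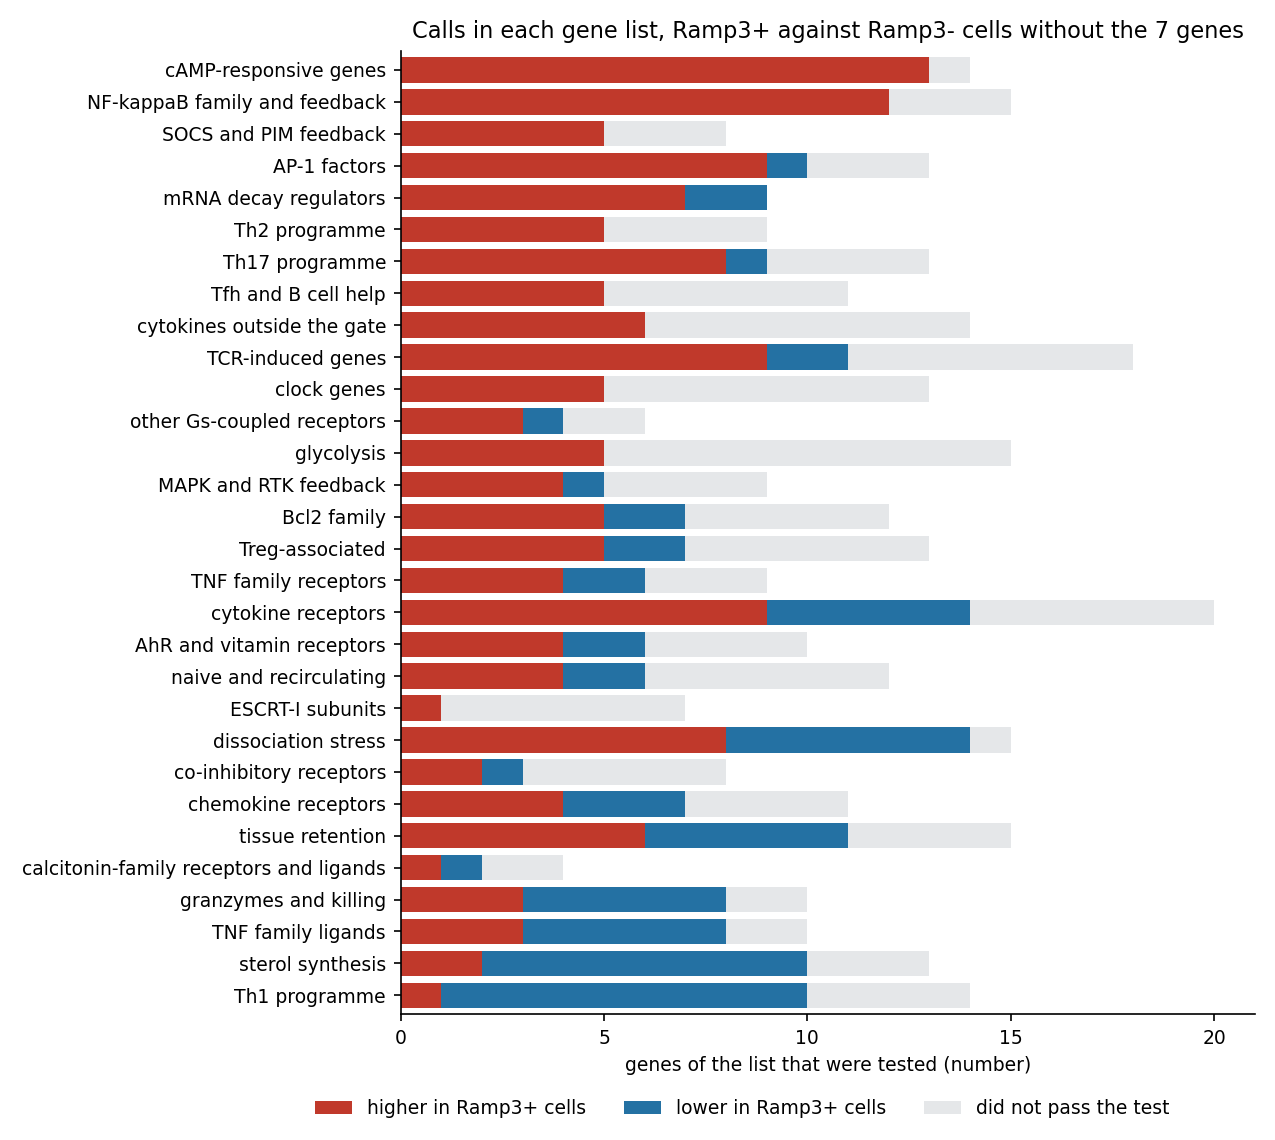
Number of tested genes of each of 30 lists (x axis) that were higher in Ramp3+ cells, lower in them or did not pass edgeR's test at an adjusted p of 0.05, with lists from top to bottom by the excess of higher over lower genes as a share of the genes tested. The cyclic AMP list has 13 higher and 0 lower of 14, and the Th1 list 1 higher and 9 lower of 14.

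Among genes taken by size alone, the other large rises were Cbarp, a calcium channel regulator (1.51 ± 0.08), Ell2, an elongation factor (1.37 ± 0.08), Dgat1, which makes triglyceride (1.30 ± 0.06), and Ern1, the endoplasmic reticulum stress sensor IRE1 (1.24 ± 0.05, 106 and 48.0 CPM). The largest falls were in H2-Aa (-1.47 ± 0.28, 11.8 and 33.0 CPM) and H2-Eb1 (-1.35 ± 0.31, 8.39 and 22.4 CPM), which encode MHC class II chains of antigen-presenting cells. Their Ramp3- levels were 55.4 and 41.6 CPM of H2-Aa in libraries 1 and 2 and 17.1 and 17.8 CPM in libraries 3 and 4. The plasma cell and B cell marker sums were lower in the Ramp3+ cells too, as given above. In cells with a Cd4 UMI neither call held, with log2 values of -0.54 for H2-Aa and -0.24 for H2-Eb1 (edgeR adjusted p = 0.14 and 0.606), and neither did in cells of 2000 to 4000 UMIs (adjusted p = 0.443 and 0.239). The part of other cell types in the rest was not tested. AI467606 fell by 1.29 ± 0.07 (24.6 and 63.4 CPM), Tor4a, a torsin ATPase, by 1.20 ± 0.10, Plekhf1 by 1.04 ± 0.12, Trp53rka by 0.93 ± 0.12, Slfn1, a Schlafen family gene linked to T cell quiescence, by 0.87 ± 0.07, Ifit1bl1 by 0.87 ± 0.13, Igfbp4 by 0.86 ± 0.13 and Fut11 by 0.86 ± 0.13.

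The same split was then made in cells that held a UMI of Il2, Ifng, Il17a or Il21, which are other cells of the same libraries. There 2163 of 10729 genes passed (20.2%), 1286 higher (12%) and 877 lower (8.17%) in Ramp3+ cells. Of the genes called in cells without the 7 genes, 1607 (58.7% of 2736) were also called here (74.3% of 2163), 1593 of them in the same direction. Calca was at 33.6, 33.3, 32.5 and 74.0 CPM in the Ramp3+ cytokine cells, against 13.5, 9.88, 12.4 and 11.6 CPM in the Ramp3- cytokine cells, and rose by 1.92 ± 0.22. Atf3 rose by 1.55 ± 0.10, Fosl2 by 1.12 ± 0.08, Crem by 1.12 ± 0.08 and Sik1 by 1.29 ± 0.09, and 13 of 14 genes of the cyclic AMP list and 12 of 15 of the NF-kappaB list rose again. Ccl4 fell by 1.33 ± 0.24 and Ccl5 by 0.81 ± 0.06. Nr4a3 averaged 253 ± 44.5 CPM in the Ramp3+ cytokine cells and 140 ± 42.2 CPM in the Ramp3- cytokine cells, Tnfsf11 252 ± 21.7 and 145 ± 25.7 CPM, and Vps37b 1099 ± 153 and 552 ± 144 CPM.

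The difference of the 2 splits was tested as an interaction, and 36 of 10729 genes (0.336%) passed, 13 with a larger value in cells without the 7 genes and 23 with a smaller one. At an unadjusted p under 0.05 there were 781. Hk2 differed by 0.70 ± 0.11 (1.38 in cells without the 7 genes and 0.68 in cytokine cells, edgeR adjusted p = 0.0036), Fes, a tyrosine kinase, by 0.59 ± 0.12 and Socs3 by 0.36 ± 0.07 (0.99 and 0.62). The largest differences were in MHC class II genes: H2-Aa with -3.28 ± 0.37, H2-Eb1 with -3.18 ± 0.39, H2-Ab1 with -2.71 ± 0.41 and Cd74, the invariant chain, with -2.09 ± 0.28. H2-Aa and H2-Eb1 were lower in Ramp3+ cells without the 7 genes and higher in Ramp3+ cytokine cells. H2-Aa was at 44.3 CPM in the Ramp3+ cytokine cells, against 12.7 CPM in the Ramp3- cytokine cells. H2-Ab1 and Apoe, a gene of macrophages, were also higher in the Ramp3+ cytokine cells (Apoe 62.1 and 13.2 CPM). The doublet-marked share was 7.65% to 8.70% in the Ramp3+ cytokine cells and 3.28% to 4.27% in the Ramp3- cytokine cells, and the myeloid marker sum 146 to 186 CPM and 124 to 141 CPM. In cells of 2000 to 4000 UMIs the H2-Aa difference was -0.02 (edgeR adjusted p = 1), and in cells of 4000 to 8000 UMIs it was -2.50 (adjusted p = 0.761). By the interaction, 0 genes were higher and 1 lower in the shallower cells, with 476 at an unadjusted p under 0.05 (edgeR), and 0 and 0 in the deeper cells, with 532. Leaving out 1 library ended the calls of Fes and Socs3 (library 1, 2 or 3), Hk2 (library 3) and H2-Ab1 (library 1). DESeq2 on all cells called 9 higher and 17 lower. Without library 1 the counts were 4 and 7, without library 3 they were 5 and 13, and without library 4 the higher count was 5.

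Compared with the Ramp3+ cytokine cells, the Ramp3+ cells without the 7 genes were higher in 297 genes (2.77%) and lower in 248 (2.31%), 545 in all (5.08%). Higher were Igfbp4 (2.42 ± 0.22, 21.1 and 3.88 CPM), Klrg1, a marker of terminal effector and some regulatory T cells (1.93 ± 0.20, 42.9 and 11.02 CPM), Ccr7, the lymph node homing receptor (1.62 ± 0.21, 61.9 and 20.4 CPM), Cd83 (1.02 ± 0.19), S1pr1, the receptor for exit from tissue (0.93 ± 0.18), and Tnfrsf9 (0.83 ± 0.16). Ccr7 was at 83.3, 38.2, 65.4 and 60.6 CPM in the Ramp3+ cells without the 7 genes, against 37.9, 6.24, 13.2 and 24.4 CPM in the Ramp3+ cytokine cells, where the sets did not overlap, as for 5.37% of all genes. Lower were Il17f, a Th17 cytokine often made with Il17a (-2.43 ± 0.53, 4.39 and 21.8 CPM; edgeR adjusted p = 0.243 without library 1), Il12rb2, the Th1 interleukin 12 receptor chain (-1.09 ± 0.08, 127 and 274 CPM), and the MHC class II genes and Apoe given above. Apoe kept its call in 11 of 16 other settings, and lost it without library 1, with DESeq2, with no replicate block and in both depth classes (-0.25 on the log2 scale in cells of 2000 to 4000 UMIs and -0.58 in cells of 4000 to 8000 UMIs, against -1.90 in all). H2-Aa lost its call in both depth classes, with 0.27 in the shallower and -0.87 in the deeper, against -1.98 in all. In the Th1 list 9 of 14 genes were lower and 0 higher, in the naive and recirculating list 7 of 12 higher and 1 lower, and in the cyclic AMP list 1 of 14 was higher and 2 lower. The sets were chosen by Ifng and Il17a among others, so genes made with these cytokines are tied to the rule. The counts were 192 higher and 151 lower without library 1 and 191 and 143 without library 2.

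Last, Ramp3 was compared over the cell groups that the zero genes define. With each cell thinned to 2000 UMIs, Ramp3 was read in 32.6% ± 4.76 of Il17a+ cells, 27.1% ± 8.49 of cells without the 7 genes, 23.3% ± 4.72 of Il2+ cells, 22.6% ± 4.76 of Foxp3+ cells, 18.6% ± 5.61 of Ifng+ cells, 16.4% ± 6.38 of Il21+ cells, 15.03% ± 4.49 of cells with Mki67 and Top2a, 13.7% ± 7.45 of Cxcr5+ cells and 11.98% ± 5.57 of Cd8a+ cells (SD, n = 4; the cytokine and Cxcr5 groups without Foxp3). Neighbours in this order differed by less than the SD of either, apart from the top pair. The difference between Il17a+ cells and cells without the 7 genes was above the SD of the Il17a+ cells and below that of the cells without the 7 genes. These SDs hold a spread between libraries that most groups shared, so they are no test of neighbours. Within each library Foxp3+ cells were above Ifng+ cells, and Ifng+ cells above Il21+ cells. The other neighbours changed order between libraries. In CPM, Ramp3 was at 225 ± 82.3 CPM in cells without the 7 genes, 220 ± 62.1 CPM in Il17a+ cells, 159 ± 26.1 CPM in Foxp3+ cells and 141 ± 43.8 CPM in Ifng+ cells. Cells with Cd79a and no CD3 gene held Ramp3 in 0 of 11 (exact 95% interval up to 28.5%) and cells with Lyz2 and Cst3 and no CD3 gene in 0 of 10 (up to 30.8%), which are too few cells to give the level of free RNA, and their median depths were 8856.5 and 2285 UMIs. Libraries 1 and 2 stood above libraries 3 and 4 in the cells without the 7 genes (36.2%, 32.5%, 20.8% and 19.1%) and likewise in Il2+, Foxp3+, Ifng+ and Il21+ cells and in cells with Mki67 and Top2a. Il17a+ cells did not follow this order (35.5%, 34.3%, 35.2% and 25.5% in libraries 1 to 4), nor did Cd8a+ cells (16.2%, 7.69%, 17.4% and 6.69%) or Cxcr5+ cells (lowest in library 2 at 4.76%, highest in library 1 at 22.7%).

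**Figure D5:**
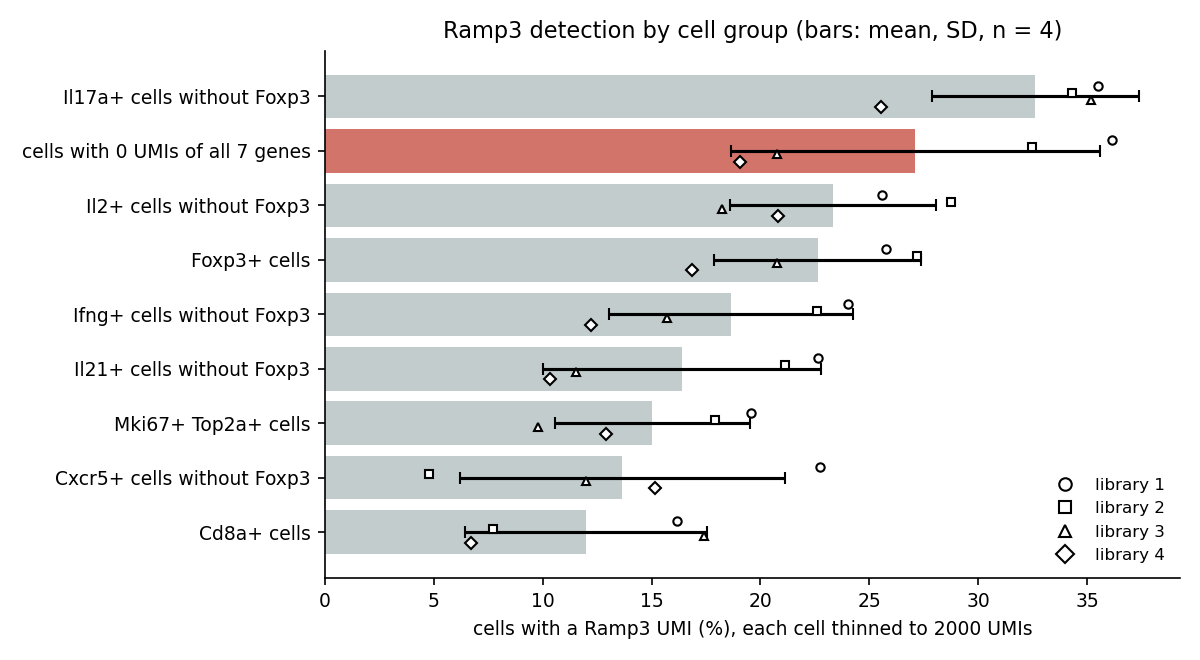
Share of cells with a Ramp3 UMI in percent (x axis) by cell group (y axis), with each cell thinned to 2000 UMIs. Bars are means with SD over 4 libraries and symbols are libraries; cells without the 7 genes are in red at 27.1%, between Il17a+ cells at 32.6% and Il2+ cells at 23.3%.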

How the data were processed

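The authors deposited UMI counts per gene and cell barcode for 4 libraries, made with Cell Ranger 3.0.2 on mm10 per the submitters' processing notes. Cells were kept at 500 genes, 1000 UMIs and at most 10% mitochondrial UMIs; 31011 of 31053 gene IDs had a position in GENCODE. The libraries held 23918884 to 28783972 UMIs. Doublets were scored with Scrublet in scanpy 1.11.5 and kept, with their removal as an alternative. UMIs were summed per library for 4 disjoint sets of cells (Ramp3+ or Ramp3-, without the 7 genes or with a cytokine), and the 16 sums were fitted together in edgeR 4.0.16 (R 4.3.3; quasi-likelihood, TMM scaling, edgeR's low-count filter, library as a block, since all sets of a library are the same sample). Adjusted p-values are Benjamini-Hochberg. The script was tested on simulated data. CPM are UMIs per 1000000 UMIs of the summed set, and shares used numpy 2.4.6 with exact binomial intervals from scipy 1.17.1 that cover counting error only. Cells of a library are not replicates.

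The members, lists and markers were chosen with earlier results of these data known. The genes named are the 12 highest and 12 lowest log2 fold changes past the threshold with the same direction in 4 libraries and at least 20 CPM in a set (6 and 6 in the other comparisons; predicted, receptor, immunoglobulin, ribosomal and mitochondrial genes left out), up to 4 of each list by smallest adjusted p, and all calcitonin and ESCRT-I genes. Other list members were named after their values were seen. Alternatives changed the scaling, the tool (DESeq2 1.42.0), the filters, the Ramp3 threshold, the depth, the block and the libraries. Some genes and 1 cell group are not reported here.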

Additional observations from a re-analysis of the deposited data

Results flagged for a closer look

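In 21 of 433 checks of 4 library values, 1 library lay far from the other 3; chance gives about 1 in 20. In the Ramp3+ cells without the 7 genes, Odc1 was highest in library 1 (1248 CPM, against 789 to 822 CPM in the others), and Dusp2 (125 CPM), Mvb12a (73.7 CPM) and Trp53rka (7.03 CPM) were lowest there. Ikzf2 (229.7 CPM) and Crcp (29.5 CPM) were highest in library 3. In library 4 H2-Ab1 was highest (17.6 CPM) and Casp4 lowest (50.05 CPM). In the Ramp3- cells without the 7 genes, library 1 stood apart with high Ccr7 (101.9 CPM), Satb1 (62.8 CPM) and Ramp1 (8.42 CPM) and low Nab2 (18.1 CPM), and library 2 with high Cd83 (58.5 CPM) and Il1rl1 (17.35 CPM). Among log2 differences of Ramp3+ from Ramp3- cells, library 4 stood apart for Apoe (3.20, against -1.42 to -1.13 in the others) and Nkg7 (-0.49), library 1 for Idi1 (-0.091), library 2 for Tmem176b (0.35), and library 3 for Tnfsf8 (1.54), Zc3h12a (1.39) and Traf1 (0.84).

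For 14 genes among 141 checked, the log2 difference of Ramp3+ from Ramp3- cells was not the same without the 7 genes and with a cytokine, by the edgeR interaction at an adjusted p under 0.05. It was larger without the 7 genes for Hk2 (0.70), Fes (0.59), Casp4 (0.37), Socs3 (0.36), Furin (0.36), Rrad (0.32) and Il21r (0.30). It was smaller for H2-Aa (-3.28), H2-Eb1 (-3.18), Apoe (-2.88), H2-Ab1 (-2.71), Ramp1 (-2.53), Cd74 (-2.09) and Eif1b (-0.33). For the 11 that the naming rule took (all but Apoe, Il21r and Ramp1), the calls were lost in cells of 2000 to 4000 and of 4000 to 8000 UMIs.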

How the results depend on the processing

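Named genes of Ramp3+ against Ramp3- cells without the 7 genes were followed over 16 settings. The call stayed the same in 1911 results, was lost in 81 and was gained in 7. Where a gene was called in either fit, 0 results reversed direction. Genes called in neither fit could change sign, for example Calcrl (-0.106 to 0.104 on the log2 scale). Of the 24 genes this comparison took by size, 5 lost a call in some setting (H2-Aa, H2-Eb1, Il22, Ifit1bl1, Igfbp4). The higher and lower counts below follow that order. Without the 7 genes (1523 and 1213) they were 1054 and 607 with DESeq2, 1027 and 719 in cells of 2000 to 4000 UMIs, 943 and 623 in cells of 4000 to 8000 UMIs, 873 and 2477 with library size alone, and 1189 to 1305 and 841 to 987 with 1 library left out. Cytokine cells (1286 and 877) gave 842 and 398, 733 and 382, 882 and 520, and 847 and 1780 in the first 4 of these settings. The interaction (13 and 23) gave 0 and 1 and then 0 and 0 in the depth classes, 7 and 22 with library size alone, 96 and 91 with no low-count filter, 12 and 10 in cells with a Cd4 UMI, 8 and 13 without Mki67 or Top2a (a setting chosen after seeing the data), and 4 to 15 and 7 to 27 with 1 library left out. Ramp3+ cells without the 7 genes against Ramp3+ cytokine cells (297 and 248) gave 184 and 125, 83 and 59, 167 and 119, and 222 and 378 in the first 4 settings, 209 and 139 with at least 2 Ramp3 UMIs, and 191 to 234 and 143 to 200 with 1 library left out. Falling list genes numbered 35 in cells of 4000 to 8000 UMIs, against 56. In cells of 2000 to 4000 UMIs the sign turned for H2-Aa (-0.51), H2-Ab1 (-0.61) and H2-Eb1 (-0.13) in cytokine cells, for H2-Aa between the Ramp3+ sets (0.27) and for Cd74 in the interaction (0.12). Requiring 2 Ramp3 UMIs cut the share of all cells to 9.58%. Detection of Nr4a3 was 50.01% at 3000 UMIs and 58.2% unthinned, of Tnfsf11 23.8% at 1500, 35.7% at 3000 and 40.6% unthinned, and of Vps37b 72.9% at 1500 and 87.0% unthinned.

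With no replicate block, so that the pairing of sets by library was not used, the counts were 858 and 721 without the 7 genes, 502 and 320 in cytokine cells, 0 and 8 for the interaction (edgeR; 337 at an unadjusted p under 0.05) and 6 and 29 between the Ramp3+ sets, and 25 list genes fell.

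Leaving out 1 library moved small list counts by more than 1.5 times: rising Th2 genes were 3 without library 2 or 4, follicular and regulatory genes 3 without library 3, clock genes 3 without library 4, retention genes 3 without library 2 or 4, naive genes 2 without library 3 or 4. Falling sterol genes were 5 without library 2, TNF ligands 3 without library 1, and cytokine receptors 3 without library 1 and 2 without library 3. Other such counts were of 2 genes or fewer. The causes were not tested. A zero count at these depths does not show absence.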
